A study of Mus musculus with 4 samples.

Results

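Genes for 10 secreted proteins that act on blood or lymph vessels, or on the cells that support them, were followed through a mouse prostate cancer cell experiment. They were the vascular endothelial growth factors Vegfa, Vegfb and Vegfc, placental growth factor Pgf, the angiopoietins Angpt1 and Angpt2, the angiopoietin-like proteins Angptl2 and Angptl4, fibroblast growth factor 2 (Fgf2) and the platelet-derived growth factor A chain (Pdgfa). Each was taken by its gene name from the deposited count table, so the set was 10 of 52636 genes. The question behind the set was whether angiogenic factors, a described output of adrenergic signalling in tumours, differed with norepinephrine or with loss of focal adhesion kinase (FAK, encoded by Ptk2).

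RNA-seq had been done on Myc-CaP, a cell line grown from a prostate tumour of a Hi-Myc transgenic FVB mouse, a strain in which a MYC transgene is driven in the prostate. There were 4 groups of 1 library each: cells with hairpins against FAK given 10 µM norepinephrine for 24 h (shFAK norepinephrine), the same line given vehicle for 24 h (shFAK vehicle), cells with a negative control hairpin given 10 µM norepinephrine for 24 h (shNC norepinephrine), and that control line given vehicle for 24 h (shNC vehicle). All cells carried the MYC transgene and a stable hairpin, and whether each line was a pool or a clone was not given in the sources used here. With 1 library a group, every difference below compares these libraries and has no replicate check. Intervals are 99% counting intervals, which, like the limits given for a count of 0, cover counting error only, because reads amplified by PCR and carrying no molecular identifier are not separate molecules.

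Libraries held 23410486 to 29948640 counts over genes. The targeted gene Ptk2 had 1248 and 1294 counts in shFAK norepinephrine and shFAK vehicle, against 3158 and 3547 in shNC norepinephrine and shNC vehicle, so its level in shFAK was 43.9% of shNC under norepinephrine and 40.8% under vehicle. Of the epithelial markers, Krt8 had 48 to 165 counts a library, and Krt18, Epcam and Cdh1 had at most 15. Of 8 endothelial markers, the summed level was 0.151 to 0.458 CPM (library-size-scaled counts) and between 2 and 5 were at 0 in a library.

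Growth factors of the VEGF family are dimers that bind receptor tyrosine kinases on endothelial cells: Vegfa acts mainly through Kdr (VEGFR2), Vegfb and Pgf bind Flt1 (VEGFR1), and Vegfc drives lymphatic growth through Flt4 (VEGFR3). Angiopoietins bind the receptor Tek (Tie2), where Angpt1 stabilises vessels and Angpt2 can act against it, whereas the angiopoietin-like proteins share their fold but do not bind Tek. Tumour cells are a known source of such factors, transcription of Vegfa and Angptl4 is raised by hypoxia-inducible factors, and cAMP signalling from beta-adrenergic receptors is reported to raise Vegfa in several tumours.

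Mouse promoter entries from RefSeq (build GRCm38.p6, which has the mm10 coordinates) were found for 7 of the 10 genes and not for Angpt1, Angpt2 and Angptl4. The 250 bases before the annotated start are shown for 3 genes: Vegfa, the family member most often tied to adrenergic and hypoxic signalling, and Vegfb and Angptl2, whose levels differed most clearly between libraries below. Capitals mark the core of a hypoxia response element (ACGTG or GCGTG) or the half-site of a cAMP response element (TGACG), on either strand, and the 2 can overlap. The windows were chr17:46032378-46032627 on the minus strand for Vegfa, which has a second, internal entry not shown, chr19:6987652-6987901 on the minus strand for Vegfb, and chr2:33215711-33215960 on the plus strand for Angptl2.
Vegfa: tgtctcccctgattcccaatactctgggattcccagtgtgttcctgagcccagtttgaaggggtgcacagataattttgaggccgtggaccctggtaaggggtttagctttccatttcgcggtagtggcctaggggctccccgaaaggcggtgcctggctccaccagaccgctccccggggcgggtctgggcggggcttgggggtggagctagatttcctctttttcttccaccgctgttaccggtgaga
Vegfb: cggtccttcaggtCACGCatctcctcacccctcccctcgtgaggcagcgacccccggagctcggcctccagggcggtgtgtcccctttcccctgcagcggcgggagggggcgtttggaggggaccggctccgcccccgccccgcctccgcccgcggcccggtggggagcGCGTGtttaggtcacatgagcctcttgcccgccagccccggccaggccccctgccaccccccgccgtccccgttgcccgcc
Angptl2: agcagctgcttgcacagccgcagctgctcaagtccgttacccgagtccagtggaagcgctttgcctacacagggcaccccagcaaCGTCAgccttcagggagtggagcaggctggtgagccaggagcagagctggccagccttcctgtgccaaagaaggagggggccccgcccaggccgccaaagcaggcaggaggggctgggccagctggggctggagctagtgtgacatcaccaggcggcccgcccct
The Vegfb window held 2 hypoxia cores, starting 237 and 81 bases before the start, and no cAMP half-site. The Angptl2 window held 1 cAMP half-site, 165 bases before the start, and no hypoxia core. The Vegfa window shown held neither, while its internal window held 2 hypoxia cores, 218 and 211 bases before that start, and 1 cAMP half-site at 209. Among 32851 mouse promoter windows of the same length, 38.6% held a hypoxia core and 17.8% a cAMP half-site, so single matches of either are common, and the full palindrome TGACGTCA, found in 1.55% of windows, was in none of these windows. GC boxes (GGGCGG, either strand, in 32.7% of all windows) numbered 2 for Vegfa, 4 for Vegfb and 2 for Angptl2. Guanine and cytosine made up 59.2% of the Vegfa window, 76.4% of the Vegfb window and 66.8% of the Angptl2 window. A match is a run of letters and no sign of binding.

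Of the 10 genes, 5 passed the filter on low counts (at least 1 CPM in at least 1 library): Vegfb, Angptl4, Vegfa, Angptl2 and Fgf2. Per length, as CPM divided by the deposited gene length in kilobases (RPKM), averaged over the 4 libraries, Vegfb was highest at 23.9, followed by Angptl4 at 11.9, Vegfa at 11.6, Angptl2 at 9.12 and Fgf2 at 0.214. Vegfb thus lay at or above 77.2% of the 10818 protein-coding genes kept, Angptl4 and Vegfa at or above 60.7% and 60.1%, Angptl2 at or above 53.4% and Fgf2 at or above 2.07%, where the median gene had 8.04 RPKM. Angptl4 and Vegfa were neighbours whose order changed between libraries, with Angptl4 at 10.7, 12.5, 12.4 and 12.0 RPKM and Vegfa at 12.8, 11.9, 11.7 and 10.2 RPKM in shFAK norepinephrine, shFAK vehicle, shNC norepinephrine and shNC vehicle. These cells therefore carried transcripts of VEGF-A, VEGF-B and both angiopoietin-like proteins at mid-range levels, and few or no reads for the other factors.

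**Figure D1:**
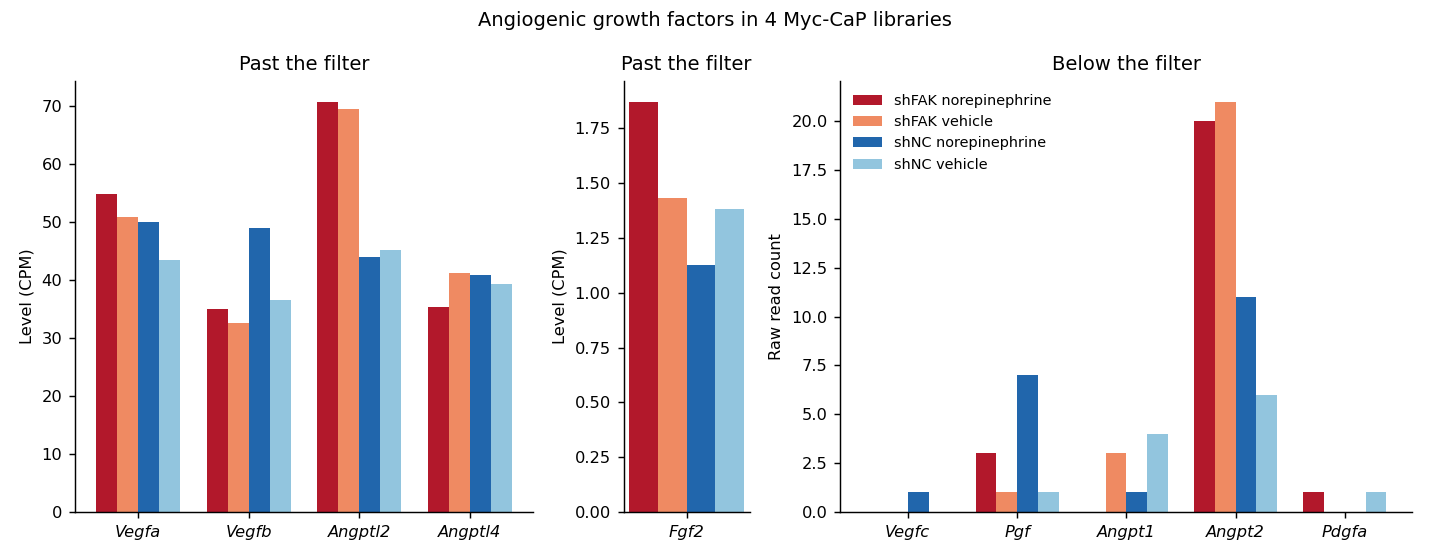
Levels of the 10 angiogenic growth factor genes in 4 libraries (1 library a group, so no error bars): CPM on linear axes for the 5 genes past the filter, and raw read counts for the 5 below it. Bars compare libraries within a gene, not genes with each other. Angptl2 stands at 70.7 and 69.4 CPM in both shFAK libraries, against 44.0 and 45.1 CPM in both shNC libraries, and Vegfb is highest in shNC norepinephrine at 49.0 CPM.

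Angptl2, a secreted glycoprotein described in inflammation and tumour progression, showed the clearest difference of the set, and it went with the hairpin. The gene (ENSMUSG00000004105, mm10 chr2:33216069-33247717, plus strand) had 1700 and 1842 counts in shFAK norepinephrine and shFAK vehicle, against 1173 and 1337 counts in shNC norepinephrine and shNC vehicle. That is 70.7 and 69.4 CPM in shFAK, against 44.0 and 45.1 CPM in shNC. Both shFAK libraries lay above both shNC libraries, and the 2 treatments within a line lay close together. The shFAK over shNC ratio was 1.54-fold under vehicle (log2 0.62, interval 0.49 to 0.76) and 1.61-fold under norepinephrine (log2 0.68, 0.54 to 0.83). The norepinephrine over vehicle log2 ratio was 0.03 in shFAK (-0.10 to 0.15) and -0.04 in shNC (-0.19 to 0.11). In an additive model of hairpin and treatment over all 4 libraries, edgeR's quasi-likelihood test with Benjamini-Hochberg adjustment gave a log2 difference of 0.65 ± 0.09 (SE) for shFAK and an adjusted p of 8.8e-12. The adjusted p was between 1.41e-12 and 1.38e-05 under the 7 alternative settings that could be tested, with log2 differences of 0.56 to 0.72. That model has 1 residual degree of freedom, and its spread is the departure from additivity pooled over genes, so its p-values hold only if the 2 lines respond alike and do not measure variation between cultures. Angptl2 lies inside Ralgps1 on the opposite strand, which had 277 to 409 counts and shares no exon with it.

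Vegfb, which binds Flt1 and is known for effects on fatty acid uptake and endothelial survival, was the one member that the additive model called for both hairpin and treatment, though neither call held under all processing. It is encoded on the minus strand at mm10 chr19:6982473-6987651 (ENSMUSG00000024962). Counts were 841 in shFAK norepinephrine, 866 in shFAK vehicle, 1306 in shNC norepinephrine and 1081 in shNC vehicle, or 35.0, 32.6, 49.0 and 36.5 CPM in that order. The shNC norepinephrine library stood above the other 3, which lay within 4 CPM of each other. Norepinephrine over vehicle was 0.10 on the log2 scale in shFAK (-0.08 to 0.28) and 0.42, or 1.34-fold, in shNC (0.27 to 0.58). The difference of the 2 responses, shFAK minus shNC, was -0.32, and its interval of -0.56 to -0.09 left out 0. The additive model assumes that the 2 lines respond alike, so its p-values may not hold for Vegfb. The shFAK over shNC log2 ratio was -0.48 under norepinephrine (-0.65 to -0.32) and -0.16 under vehicle (-0.33 to 0.01). In the additive model Vegfb fell in shFAK by 0.32 on the log2 scale (SE 0.09, adjusted p = 0.00278, edgeR with Benjamini-Hochberg adjustment) and rose with norepinephrine by 0.27 (SE 0.09, adjusted p = 0.0377, same test).

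Both Vegfb calls ended under other processing. With each library's trend over gene length taken off, the edgeR adjusted p was 0.101 for the hairpin (log2 -0.17) and 0.197 for norepinephrine (log2 0.17). With the trend over transcript GC content taken off as well, they were 0.148 (log2 -0.16) and 0.986 (log2 0.0032), and the log2 norepinephrine ratio was then -0.14 in shFAK and 0.13 in shNC. DESeq2's Wald test gave adjusted p-values of 0.121 and 0.339. Over the 7 alternatives with a test, the adjusted p ran between 0.00198 and 0.148 for the hairpin and between 0.0283 and 0.986 for norepinephrine (edgeR or DESeq2). Vegfb has the shortest listed length of the 10 genes, 1605 bases, and its longest transcript is 62.6% guanine and cytosine.

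Vegfa, the main inducer of endothelial growth and permeability, varied less. The gene (ENSMUSG00000023951, mm10 chr17:46016993-46032369, minus strand) had 1315 counts in shFAK norepinephrine, 1350 in shFAK vehicle, 1333 in shNC norepinephrine and 1288 in shNC vehicle, or 54.7, 50.9, 50.0 and 43.5 CPM in that order. The shNC vehicle library was lowest and shFAK norepinephrine highest, and the range over the 4 was 0.33 on the log2 scale. Norepinephrine over vehicle was 0.10 in shFAK (-0.04 to 0.25) and 0.20, or 1.15-fold, in shNC (0.06 to 0.35), both log2. The 2 responses differed by -0.10, shFAK minus shNC, with an interval of -0.30 to 0.11. The shFAK over shNC log2 ratio was 0.13 under norepinephrine (-0.02 to 0.28) and 0.23 under vehicle (0.08 to 0.37). Neither term passed the edgeR test, with log2 differences of 0.18 ± 0.09 for shFAK (adjusted p = 0.1) and 0.15 ± 0.09 for norepinephrine (SE, adjusted p = 0.259, Benjamini-Hochberg). With library size alone in place of TMM factors, the hairpin difference was 0.24 and passed at an edgeR adjusted p of 0.0308, in a range of 0.0308 to 0.437 over the 7 alternatives. The counts sum over 13 annotated transcripts of Vegfa in GENCODE M21, 8 of them protein-coding, so isoforms that differ in heparin binding were not told apart.

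Angptl4, an inhibitor of lipoprotein lipase that fasting, PPAR activation and hypoxia induce, was lowest in the library with both hairpin against FAK and norepinephrine. At mm10 chr17:33773750-33781575 on the minus strand (ENSMUSG00000002289), it had 848 counts in shFAK norepinephrine, 1091 in shFAK vehicle, 1089 in shNC norepinephrine and 1166 in shNC vehicle. Its levels were 35.3, 41.1, 40.9 and 39.4 CPM in that order, so the other 3 libraries lay within 2 CPM of each other. The norepinephrine over vehicle log2 ratio was -0.22 in shFAK (-0.39 to -0.05) and 0.05 in shNC (-0.10 to 0.21), a difference of -0.27 with an interval of -0.50 to -0.04. The shFAK over shNC log2 ratio was -0.21 under norepinephrine (-0.38 to -0.04) and 0.06 under vehicle (-0.10 to 0.22). Neither term passed the edgeR test, with log2 differences of -0.07 for shFAK (adjusted p = 0.582) and -0.08 for norepinephrine (adjusted p = 0.624, Benjamini-Hochberg).

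Fgf2, a heparin-binding mitogen stored in the matrix, was near the limit of measurement. It had 45 counts in shFAK norepinephrine, 38 in shFAK vehicle, 30 in shNC norepinephrine and 41 in shNC vehicle (ENSMUSG00000037225, mm10 chr3:37348346-37410108, plus strand). Levels were 1.87, 1.43, 1.13 and 1.38 CPM in that order. The largest of the 4 log2 ratios, shFAK over shNC under norepinephrine, was 0.70, and its interval of -0.17 to 1.67 took in 0. Each of its 4 intervals spanned more than 2-fold, so a difference of the size seen was not detectable at this depth. The edgeR adjusted p was 0.391 for the hairpin and 0.934 for norepinephrine (Benjamini-Hochberg). Exons of Nudt6 on the opposite strand overlap those of Fgf2, and as the library kit does not mark strand, reads of the overlap cannot be told apart. Nudt6 itself had 129 to 160 counts.

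**Figure D2:**
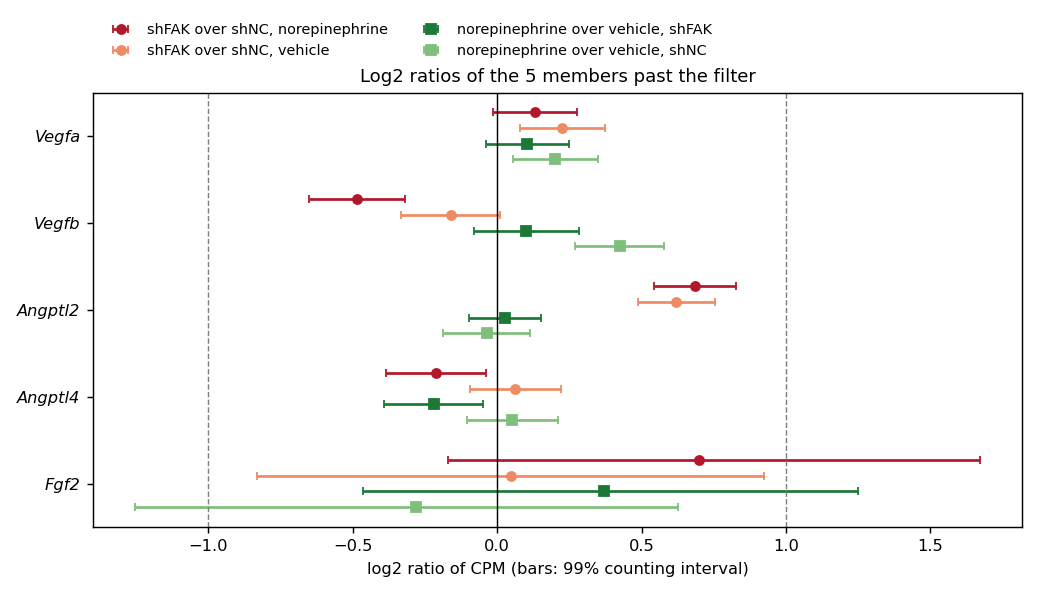
Log2 ratios of CPM (horizontal axis) for the 5 genes past the filter, with bars for the 99% counting interval, for shFAK over shNC under each treatment (circles) and norepinephrine over vehicle in each line (squares). Dashed lines mark 2-fold. The Angptl2 hairpin ratios of 0.68 and 0.62 lie to the right of 0, the Vegfb hairpin ratio under norepinephrine of -0.48 lies to the left, and no point passes a dashed line.

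The other 5 genes did not pass the filter and are given by their counts. Angpt2, the context-dependent antagonist of Tek, had the most of them, with 20 counts in shFAK norepinephrine and 21 in shFAK vehicle, against 11 in shNC norepinephrine and 6 in shNC vehicle (ENSMUSG00000031465, mm10 chr8:18690263-18741562, minus strand). Both shFAK libraries lay above both shNC libraries. From the counts alone, the shFAK over shNC log2 ratio was 1.01 under norepinephrine (-0.44 to 2.60) and 1.97 under vehicle (0.26 to 4.10). Without the filter the additive log2 hairpin difference was 1.40, with an edgeR adjusted p of 0.048 (Benjamini-Hochberg). It stayed under 1 CPM in every library, and lies inside Mcph1 on the opposite strand, which had 976 to 1246 counts and shares no exon with it. Pgf, the Flt1 ligand known from placenta, had 3, 1, 7 and 1 counts in shFAK norepinephrine, shFAK vehicle, shNC norepinephrine and shNC vehicle. Angpt1, the agonist of Tek, had 0, 3, 1 and 4 counts in the same order. Pdgfa, a ligand of Pdgfra, had 1, 0, 0 and 1 counts, and the lymphatic factor Vegfc had 0, 0, 1 and 0. A count of 0 allows up to 0.125 CPM in shFAK norepinephrine, 0.113 in shFAK vehicle, 0.113 in shNC norepinephrine and 0.101 in shNC vehicle, taken as 3 counts a library. Pgf lies at mm10 chr12:85166635-85177790, Angpt1 at chr15:42424727-42676977, Pdgfa at chr5:138976014-138997370 and Vegfc at chr8:54077606-54187096.

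By point estimate, the 5 factors past the filter differed by less than 2-fold in all 4 pairs. For Fgf2 larger differences were within the counting intervals, up to a log2 of 1.67 for shFAK over shNC under norepinephrine. The factors below the filter had too few counts for the same reading. The rule of size used for a pair asked for a 2-fold or larger ratio in either direction and an interval clear of 0. Of the 5 genes past the filter, 0 met it for shFAK over shNC under norepinephrine, where 2.6% of the 12351 genes kept were higher and 0.632% lower. Under vehicle the number was 0 as well, against 1.42% of genes higher and 0.462% lower. For norepinephrine over vehicle it was 0 in shFAK, where 0.696% were higher and 0.178% lower, and 0 in shNC, where 0.364% were higher and 0.494% lower. The difference of the 2 responses met the rule for 0 of the 5, beside 0.672% of genes higher and 0.243% lower. In the additive model, edgeR called 1 of the 5 higher in shFAK (Angptl2) and 1 lower (Vegfb), where 19.5% and 16.3% of all genes were called, so the members' share lay near the background. For norepinephrine it called 1 higher (Vegfb) and 0 lower, where 5.04% and 7.36% of genes were called. The median additive log2 hairpin difference of the 5 was 0.18, against 0.01 over all genes kept.

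Ratios between members within a library do not depend on the scaling between libraries. Reads per length of Vegfb stood at 1.71 times those of Vegfa in shFAK norepinephrine (1.52 to 1.91) and 1.71 times in shFAK vehicle (1.53 to 1.92), against 2.62 times in shNC norepinephrine (2.36 to 2.89) and 2.24 times in shNC vehicle (2.01 to 2.49). The shFAK intervals did not meet the shNC intervals. Angptl2 over Vegfa was 0.881 in shFAK norepinephrine (0.801 to 0.970) and 0.930 in shFAK vehicle (0.848 to 1.02), against 0.600 in shNC norepinephrine (0.541 to 0.666) and 0.708 in shNC vehicle (0.639 to 0.783). In shares of the per-length sum of all 10 genes, Vegfb made up 38.2% and 36.2% in shFAK norepinephrine and shFAK vehicle, against 49.2% and 43.4% in shNC norepinephrine and shNC vehicle. Angptl2 made up 19.7% and 19.6% in the shFAK libraries, against 11.3% and 13.7% in the shNC libraries in the same order. By reads as counted, the mix thus held more Angptl2 and less Vegfb per unit of Vegfa in both shFAK libraries. Such a ratio shows unequal change and not which gene moved. It also keeps each library's trends over gene length and GC content, which were not taken off here. Vegfb has 1605 bases and 62.6% GC, against 4285 bases and 50.9% for Vegfa. With those trends taken off, the Vegfb hairpin call ended, as given above.

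**Figure D3:**
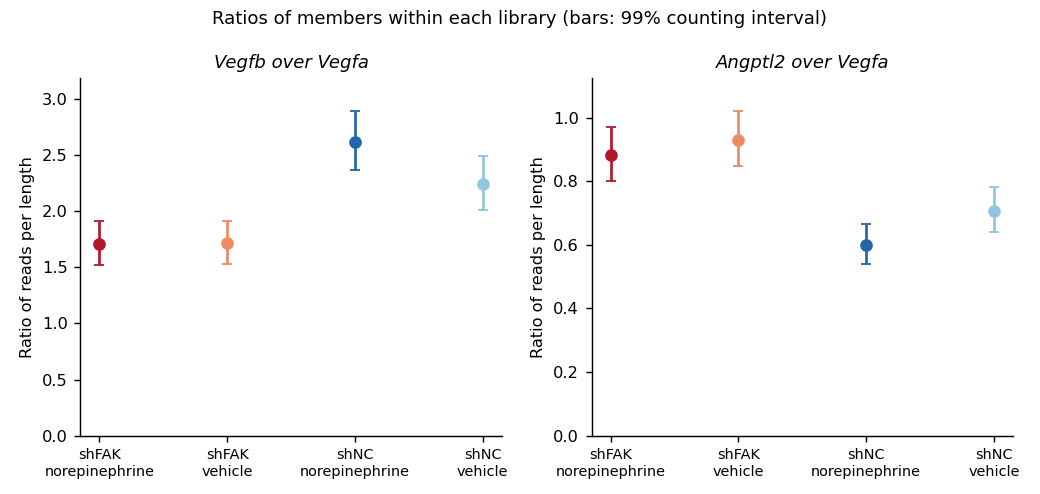
Ratio of reads per length of Vegfb over Vegfa (left) and Angptl2 over Vegfa (right) in each of the 4 libraries, on linear axes from 0, with bars for the 99% counting interval. The 2 shFAK points lie below the 2 shNC points for Vegfb over Vegfa, at 1.71 against 2.62 and 2.24, and above them for Angptl2 over Vegfa, at 0.881 and 0.930 against 0.600 and 0.708.

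Other ligands of the same families were mostly at low counts, and 5 of 14 passed the filter. Of these 5, edgeR called 2 higher in shFAK and 0 lower (Benjamini-Hochberg), beside 19.5% and 16.3% of all genes kept. For norepinephrine edgeR called 0 of the 5, and DESeq2's Wald test called 0. At an unadjusted edgeR p under 0.05 there was 1 (Angptl6, adjusted p = 0.149), beside 3220 of all 12351 genes kept. Fgf1, an acidic fibroblast growth factor that binds all FGF receptors, was called higher in shFAK (edgeR adjusted p = 0.00135, Benjamini-Hochberg). Its log2 ratio was 0.92 under norepinephrine (0.405 to 1.49) and 0.43 under vehicle (-0.05 to 0.92), where the interval took in 0. Pdgfc, a second ligand of Pdgfra, rose by 0.51 and 0.26 in the same order (edgeR adjusted p = 5.46e-04, Benjamini-Hochberg). Both calls ended under DESeq2's Wald test.

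Receptors for the vessel-specific factors were near absent. The VEGF receptors, neuropilins and Tie receptors, 7 genes through which most of these factors act on vessels, had at most 10 counts in any library. The 4 receptors past the filter, of 13, were FGF and PDGF receptors, while Fgfr4 and Pdgfrb had at most 4 counts. The edgeR test called all 4 higher in shFAK (Benjamini-Hochberg), where 19.5% of all genes kept were called higher. For norepinephrine it called 0 of the 4, and DESeq2's Wald test called 0. At an unadjusted edgeR p under 0.05 there was 1 (Fgfr3, adjusted p = 0.0841), beside 3220 of all 12351 genes kept. Fgfr1, the FGF receptor typical of mesenchymal cells, had 218 and 204 counts in shFAK norepinephrine and shFAK vehicle, against 114 and 100 in shNC norepinephrine and shNC vehicle. Its shFAK over shNC log2 ratios were 1.07 under norepinephrine and 1.17 under vehicle (edgeR adjusted p = 1.36e-11, Benjamini-Hochberg). Fgfr2, a receptor for Fgf7 and related ligands in epithelium, rose by 0.78 and 0.63 in the same order (edgeR adjusted p = 2.46e-13). Fgfr3 rose by 0.63 and 0.47 (edgeR adjusted p = 1.09e-08), and Pdgfra rose by 0.74 and 0.40 (edgeR adjusted p = 2.92e-05, a call that ended under DESeq2's Wald test). The median shFAK over shNC log2 ratio of the 4 was 0.76 under norepinephrine and 0.55 under vehicle, against 0.02 and 0.0033 over all genes kept. The 7 fibroblast markers, which include Pdgfra, summed to 14.0 and 14.4 CPM in shFAK norepinephrine and shFAK vehicle, against 7.99 and 10.5 CPM in shNC norepinephrine and shNC vehicle, mostly from Pdgfra itself, while Col3a1, Dcn and Lum were at 0 in all 4 libraries. Among them the collagen gene Col1a1 had 24 and 24 counts in shFAK norepinephrine and shFAK vehicle, against 4 and 11 in shNC norepinephrine and shNC vehicle (edgeR adjusted p = 0.00828, Benjamini-Hochberg). Its log2 ratio was 2.25 under norepinephrine (0.82 to 5.43) and 1.13 under vehicle (-0.10 to 2.84), where the interval took in 0. The 4 pericyte markers summed to 5.12 and 3.24 CPM in shFAK, against 3.04 and 1.96 CPM in shNC, in the same order. Nearly all of this came from Notch3 and Cspg4, while Rgs5 and Pdgfrb had at most 2 counts in a library. Notch3 was called higher in shFAK (edgeR adjusted p = 0.021), and Cspg4 was not called (edgeR adjusted p = 0.152). The Notch3 log2 ratio was 0.63 under norepinephrine (-0.07 to 1.39), an interval that took in 0, and 0.97 under vehicle (0.13 to 1.97). DESeq2's Wald test called 0 of the fibroblast and 0 of the pericyte markers in shFAK. A gene without a DESeq2 adjusted p counts as not called, which can befall genes at low counts. The absence of a call is thus no second test of Col1a1, Notch3 or Cspg4. The part of these markers in the result was not tested, and in such bulk samples fewer cells of a type and less RNA per cell cannot be told apart.

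Of 10 genes that store or free the ligands 6 passed the filter, and edgeR called 1 higher and 1 lower in shFAK, near the 19.5% and 16.3% of all genes. For norepinephrine edgeR called 0 of the 6, and DESeq2's Wald test called 0. At an unadjusted edgeR p under 0.05 there were 0, beside 3220 of all 12351 genes kept. Plau, the urokinase that frees matrix-bound Fgf2, rose with log2 ratios of 1.34 under norepinephrine and 0.80 under vehicle (edgeR adjusted p = 6.53e-05, Benjamini-Hochberg). Fgfbp1, a carrier that releases FGFs from heparan sulphate, fell by 1.06 and 1.15 in the same order (edgeR adjusted p = 1.79e-04). Its counts were 35 and 36 in shFAK norepinephrine and shFAK vehicle, against 83 and 92 in shNC norepinephrine and shNC vehicle. DESeq2's Wald test gave no adjusted p for Plau and Fgfbp1. Of 12 inhibitors 4 passed the filter, with 1 called higher and 1 lower in shFAK (edgeR), near the same background of 19.5% and 16.3%. For norepinephrine edgeR called 0 of these 4, and DESeq2's Wald test called 0. At an unadjusted edgeR p under 0.05 there was 1, beside 3220 of all 12351 genes kept. Col18a1, whose collagen is the source of endostatin, had 29 counts in shFAK norepinephrine, 11 in shFAK vehicle, 8 in shNC norepinephrine and 17 in shNC vehicle. It was past the rule of size for norepinephrine in shFAK (log2 1.39), for shFAK over shNC under norepinephrine (1.77) and for the difference of responses (2.18), on few counts. Adamts1, a protease that binds VEGF-A, rose by 0.78 and 0.60 (edgeR adjusted p = 3.69e-13), and Sema3f, a neuropilin ligand, fell by 0.28 and 0.60 (edgeR adjusted p = 1.18e-05). The difference of responses was 0.17 for Adamts1 (0.05 to 0.30) and 0.32 for Sema3f (0.11 to 0.53). Both intervals left out 0, so the additive p-values may not hold for these genes. Thbs1, the classical inhibitor thrombospondin 1, had at most 9 counts in a library.

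**Figure D4:**
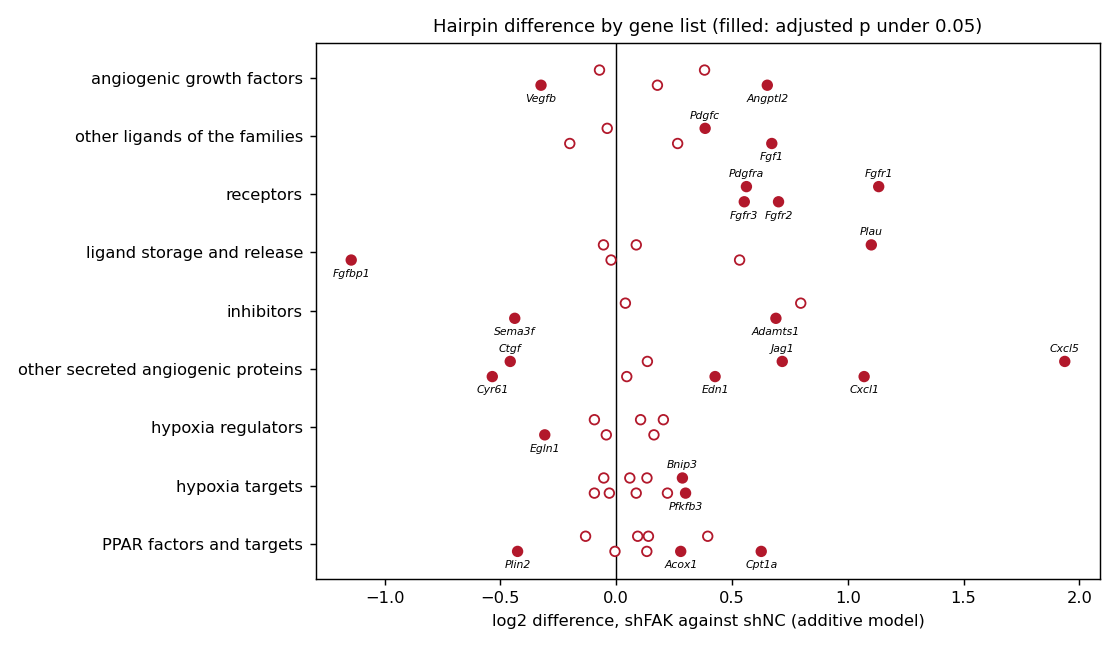
Log2 differences between shFAK and shNC from the additive model (horizontal axis) for each gene past the filter in the growth factor set and 8 related lists; filled points have an edgeR adjusted p under 0.05 and are named. All 4 receptor points are filled and lie right of 0, while the growth factors have 1 filled point on each side, Angptl2 at 0.65 and Vegfb at -0.32.

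Among other secreted proteins with vascular effects, 8 of 16 passed the filter, and edgeR called 4 higher and 2 lower in shFAK (Benjamini-Hochberg), beside 19.5% and 16.3% of all genes. For norepinephrine edgeR called 0 of the 8, and DESeq2's Wald test called 0. At an unadjusted edgeR p under 0.05 there were 2, beside 3220 of all 12351 genes kept. The CXCR2 ligand Cxcl5 had 1779 and 1884 counts in shFAK norepinephrine and shFAK vehicle, against 578 and 488 in shNC norepinephrine and shNC vehicle, log2 ratios of 1.77 and 2.10. Cxcl1, another ligand of that receptor, rose by 1.07 and 1.06 (edgeR adjusted p = 9.54e-17, Benjamini-Hochberg). The Notch ligand Jag1 rose by 0.81 and 0.63 (edgeR adjusted p = 8.43e-11), while the matricellular YAP target Cyr61 fell by 0.58 and 0.49 (edgeR adjusted p = 1.97e-08). In size, the Cxcl5 difference exceeded that of every member of the growth factor set past the filter.

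Known regulators of Vegfa or Angptl4, and other targets of the hypoxia response and of PPAR factors, were measured as context. Of 8 regulators of the hypoxia response 6 passed the filter, and edgeR called 1 lower in shFAK, where 16.3% of all genes were, and 1 higher with norepinephrine, where 5.04% were. The one lower in shFAK was Egln1, an oxygen sensor that marks Hif1a for decay, with log2 ratios of -0.36 under norepinephrine and -0.25 under vehicle (edgeR adjusted p = 0.00234, Benjamini-Hochberg). The one higher with norepinephrine was its relative Egln2, at 0.28 in shFAK and 0.48 in shNC (edgeR adjusted p = 9.07e-04), a call that ended under DESeq2's Wald test and with length and GC trends taken off. Of 12 hypoxia targets 9 passed, with 2 called higher in shFAK, near the 19.5% of all genes (Bnip3, adjusted p = 0.0131, and Pfkfb3, adjusted p = 0.00319, edgeR with Benjamini-Hochberg adjustment). For norepinephrine edgeR called 0 of the 9, and DESeq2's Wald test called 0. At an unadjusted edgeR p under 0.05 there were 4, beside 3220 of all 12351 genes kept. Both hairpin calls ended under DESeq2's Wald test. Of 11 PPAR factors and targets, the group to which Angptl4 belongs, 9 passed, with 2 called higher and 1 lower in shFAK, near the 19.5% and 16.3% of all genes, and 1 higher with norepinephrine, where 5.04% of all genes were (edgeR). Cpt1a, which brings fatty acids into mitochondria, rose by 0.71 and 0.55 in shFAK (edgeR adjusted p = 1.57e-10), the lipid droplet coat Plin2 fell by 0.42 and 0.43 (edgeR adjusted p = 1.78e-05), and the fatty acid carrier Fabp4 rose with norepinephrine by 0.23 in shFAK and 0.43 in shNC (edgeR adjusted p = 0.00383, not past DESeq2's Wald test). The difference of responses was -0.205 for Egln2 (-0.36 to -0.05) and -0.21 for Fabp4 (-0.40 to -0.01). Both intervals left out 0, so the additive p-values may not hold for Egln2 and Fabp4.

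For the 3 members with the widest range over the libraries, the protein-coding genes with the most similar profile were found, among about 9382 genes with a mean of at least 5 CPM. The measure was the Euclidean distance between 4 log2 CPM values, each centred on its gene's mean. Nearest to Angptl2 were Slc12a1 at 0.03, Katnal1 at 0.05 and Gpnmb at 0.06. Nearest to Vegfb were Slc50a1 at 0.02, Pcgf1 at 0.03 and Mcrip2 at 0.03. Nearest to Fgf2, whose own profile rests on 30 to 45 counts, were Rcor3 at 0.07, Ddit3 at 0.09 and Trp53inp2 at 0.11. With 4 points a profile and so many candidates, close matches are to be had for many genes, and the distances are a description.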

How the data were processed

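Myc-CaP RNA was extracted with Trizol and sequenced from NEBNext Ultra libraries, per the labels' protocols. The authors deposited raw read counts per gene with coordinates and lengths. The tools named per the submitters' processing notes are featureCounts 1.5.0-p3 and HISAT2 2.0.5, with build mm10. Not given in the sources used here are the annotation release, the strand setting and how reads with several hits were counted.

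From the deposited counts, TMM-scaled CPM were computed with edgeR 4.0.16 in R 4.3.3. Genes with at least 1 CPM in at least 1 library were kept, 12351 of 52636. Log2 ratios used a prior count of 2 and exact 99% Clopper-Pearson intervals; the difference of responses used a normal approximation. The additive model of hairpin and treatment used edgeR's quasi-likelihood test on all 4 libraries, Benjamini-Hochberg adjusted p under 0.05. DESeq2 1.42.0 was an alternative, and a gene to which it gave no adjusted p counts as not called. RPKM used the deposited lengths. Near-identical copies (at least 95% identity over 100 bases) were sought with minimap2 2.31 on GENCODE M21 transcripts and found only for genes overlapping Angpt1, Fgf2 and Pdgfa. The computations were tested on simulated data. The members and lists were chosen with earlier results of these data known. Named were all members, Ptk2, and from each list up to 4 genes with a mean of at least 1 CPM and the largest mean hairpin ratio and up to 2 with the largest mean norepinephrine ratio; Thbs1, Col18a1, the low receptors and the single cell type markers were named after their values were seen. Some markers are not reported here.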

Additional observations from a re-analysis of the deposited data

Results flagged for a closer look

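In the main setting the norepinephrine response had opposite signs in the 2 lines for Angptl4, Fgf2 and Angptl2. With 1 library a group these differences were not tested. For Angptl4 the log2 ratio was -0.22 in shFAK and 0.05 in shNC, a difference of -0.27 (99% counting interval -0.50 to -0.04). By construction the same -0.27 separates its hairpin ratio under norepinephrine, -0.21, from that under vehicle, 0.06. For Fgf2 the log2 ratio was 0.37 in shFAK and -0.28 in shNC, a difference of 0.65 (-0.53 to 1.83). For Angptl2 it was 0.03 in shFAK and -0.04 in shNC, a difference of 0.064 (-0.13 to 0.26). The Angptl4 interval left out 0, and those of Fgf2 and Angptl2 took it in. Over the alternative settings the shNC log2 ratio crossed 0 for Angptl4 (-0.01 to 0.07) and Angptl2 (-0.07 to 0.06). For Fgf2 it stayed below 0 (-0.31 to -0.10). How often signs were opposite over all genes kept was not computed, so their occurrence here is a description only.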

How the results depend on the processing

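No paired analysis was possible because each group had 1 library and the labels give no shared replicate numbers. Of 195 ratios of members recomputed under the alternatives, 187 stayed within a counting interval narrower than the 99% one. No member past the filter had met the size rule in a pair, so no such call could change direction. Some ratios near 0 changed sign. Norepinephrine over vehicle ran from -0.14 to 0.11 for Vegfb in shFAK and from -0.07 to 0.06 for Angptl2 in shNC (log2). The additive norepinephrine model called 1 member, and 0 with library size alone, no filter, the length trend taken off, DESeq2's Wald test, or length and GC trends taken off, the last chosen after seeing the data. The hairpin model called 2 members, and 1 with length, with length and GC, or with DESeq2's Wald test; Vegfb was the one lost. With no filter, Angpt2 met the size rule for shFAK over shNC under vehicle, making 1 member in place of 0. Its edgeR adjusted p was then 0.048.

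Counts over all genes moved too. With no filter, 663 genes in place of 399 met the size rule for shFAK over shNC under norepinephrine, 403 in place of 108 for norepinephrine in shFAK, 173 in place of 106 in shNC and 183 in place of 113 for the difference of responses, while the norepinephrine model called 948 in place of 1532. At a minimum of 5 CPM these were 135, 14, 29 and 22, and 86 in place of 232 for shFAK over shNC under vehicle. A prior count of 10 gave 67 for norepinephrine in shFAK and 62 in shNC. The norepinephrine model called 762 genes with the length trend taken off, 351 with length and GC and 98 with DESeq2's Wald test, which called 1723 in place of 4416 for the hairpin. Library size alone gave 2901 higher and 1201 lower in shFAK in place of 2407 and 2009, 363 and 772 in place of 623 and 909 for norepinephrine, and moved the median log2 hairpin ratio of all genes under norepinephrine to 0.11. Taking off the length trend gave 1919 higher and 1979 lower for the hairpin and 381 each way for norepinephrine. The cause was not tested. Depth limits the 5 genes below the filter and Fgf2, whose intervals span more than 2-fold.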
